A study of Mus musculus with 48 samples.

Results

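The genes described here are the solute carriers, the membrane transporters whose symbols start with Slc and give a family and a member number. They were measured in osteoblasts, which lay down bone, from the mouse skull cap (calvaria), given oncostatin M or leukemia inhibitory factor. Of 315 solute carrier genes with a named probe on the array, 166 had a probe with a detection p-value under 0.01 on at least 3 of 48 arrays. These 166 members, of 10739 genes tested in all, belong to 44 families. The brightest such probe stood for each gene. Of the members, 99 were detected on all 48 arrays, 31 on 24 to 47, 15 on 11 to 23 and 21 on 3 to 10, while 149 solute carrier genes were detected on too few arrays to be tested.

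The donor mice were either wild type (WT) or lacked Osmr, the gene of the oncostatin M receptor (KO), both on the C57BL/6 background. Cultures had 17 days to differentiate and were then left as controls or given a cytokine at 10 ng/ml, and collected after 1 h or 6 h. The cytokines were oncostatin M of mouse (mOSM) or of human (hOSM) sequence and leukemia inhibitory factor (mLIF, as the sample titles call it). This gives 16 groups of 3 arrays, WT or KO, with 1 of the 4 treatments at 1 of the 2 times. According to the design text, hOSM and LIF act on mouse cells only through the LIF receptor, while mOSM can act through both that receptor and the oncostatin M receptor. The design text and the titles call the LIF mouse, and the treatment protocol calls it human. The labels tie the 3 cultures of each genotype to no particular animals, so p-values measure the spread between these arrays, which may be technical. Osmr was at 9.51 to 12.23 on the 24 WT arrays (median 10.54, log2 intensity) and at 6.28 to 8.75 on the 24 KO arrays (median 7.23), which do not overlap. Its probe was still detected on all 24 KO arrays, and where the probe lies relative to the deleted part is not given.

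The KO replicate 3 culture stood apart from the other 5, at 60.7 on the leading principal component of all genes against -17.7 to -0.1, and at 6.61 on that of the members against -2.09 to 0.12. A second fit therefore gave each culture, that is each replicate number within a genotype, a term of its own. It is called the culture term below, and its counts are given where they differ from those of the group means, with values for the genes named. The cell type field of the labels says osteocyte: of the osteocyte markers, Phex and Pdpn were detected on all 48 arrays, Mepe on up to 12, Dmp1 on up to 7 and Sost on 0, while of the osteoblast markers Col1a1, Col1a2, Alpl and Sp7 were detected on all 48, Bglap on 43 and Ibsp on 33, and Spp1 has no named probe.

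Solute carriers move small molecules across membranes, and most couple the movement of a substrate to a gradient of sodium, protons or a second substrate. Members of the same family often carry different substrates, and some families act inside the cell, in mitochondria, lysosomes or the Golgi apparatus. In bone-forming cells they supply amino acids for collagen, phosphate and other ions for mineral, zinc for alkaline phosphatase and fuel for matrix synthesis. Oncostatin M and leukemia inhibitory factor belong to the interleukin-6 family of cytokines, which signal through a shared receptor subunit and the transcription factor STAT3.

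In WT cells given mOSM for 6 h, 45 of the 166 members passed the test, 18 higher and 27 lower than in controls. The test was limma's moderated test with Benjamini-Hochberg adjustment over all 10739 genes, with an adjusted p under 0.05 as passing, here and throughout. Of all genes tested, 27.5% passed in this comparison (11.9% higher and 15.6% lower), and of the members 27.1%, so that the share of solute carriers was near that of the array as a whole. The median change of the members was -0.08 (log2), as was that of all genes. The shares of 11.9% and 15.6% are also those to set beside the counts by transport class and gene list below. No class or list was tested as a set. More than 2-fold changes passed for 9 members upward and 14 downward. With the culture term 81 members passed, among them all 45, and 45.2% of all genes passed. Of the 45, 24 passed without any single array of either group.

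The largest rises were in a steroid sulfate transporter and a zinc and iron importer. Slc10a6, a sodium-coupled transporter of sulfated steroids, stood at 6.17, 4.82 and 5.11 (log2 intensity) in WT control replicates 1 to 3 at 6 h and at 10.36, 9.57 and 10.01 in the mOSM replicates. Every mOSM array lay above every control array. The difference was 4.61 ± 0.72 (log2, SE, n = 3 arrays per group, adjusted p = 7.2e-06 by limma), and it was similar in the 3 cultures at 4.19, 4.74 and 4.90. The probe was detected on only 1 of the 3 control arrays, and raising the other 2 to the lowest detected signal of their array made the difference 4.16.

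The promoter windows below, from RefSeq (GRCm38.p6), reach from 250 bases before to 50 after the annotated gene start, and are shown for Slc10a6, with the largest rise, and for Slc39a10, a riser whose window holds a match to the STAT-type motif TTCNNNGAA. Capitals mark that match, and the motif reads the same on both strands. Slc10a6 lies at chr5:103629354-103629653, minus strand, and holds 0 matches.
Slc10a6: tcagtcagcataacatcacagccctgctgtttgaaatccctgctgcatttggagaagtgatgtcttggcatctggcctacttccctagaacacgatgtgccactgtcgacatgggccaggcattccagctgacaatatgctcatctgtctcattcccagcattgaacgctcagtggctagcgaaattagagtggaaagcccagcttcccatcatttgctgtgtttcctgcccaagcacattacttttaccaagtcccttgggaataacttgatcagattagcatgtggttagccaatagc
Slc39a10: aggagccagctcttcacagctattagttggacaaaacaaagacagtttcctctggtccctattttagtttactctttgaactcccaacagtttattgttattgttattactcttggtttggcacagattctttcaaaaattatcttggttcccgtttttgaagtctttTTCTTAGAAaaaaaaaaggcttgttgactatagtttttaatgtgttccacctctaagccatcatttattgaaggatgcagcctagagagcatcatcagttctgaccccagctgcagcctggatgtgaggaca
The Slc39a10 window is chr1:46925727-46926026, minus strand, and its match starts at position -82 relative to the gene start. A second RefSeq window of the same gene holds 0 matches. Of all 32851 windows of this length, 8.3% hold the motif. Of the 177 windows of the 131 members that could be matched by symbol, 3.95% do. Among members that rose in WT cells with mOSM at 6 h it was 1 of 17 windows (5.88%), and among those that fell 1 of 27 (3.7%), in Slc38a9. A match in these letters is a description and not a site.

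Zinc transporters made up 16 members, of which 3 rose and 1 fell. Slc39a14, which imports zinc, iron and manganese, was at 5.19, 5.13 and 5.22 in WT controls at 6 h and at 8.77, 8.01 and 8.72 with mOSM. No control array was above background, all mOSM arrays were, and the groups do not overlap. The difference was 3.32 ± 0.27 (adjusted p = 2e-11 by limma), and against the floor of the control arrays the level was at least 7.30-fold higher. Slc39a10, another zinc importer of the plasma membrane, went from 6.26, 6.73 and 6.57 to 7.81, 7.87 and 7.72, a rise of 1.28 ± 0.36 (adjusted p = 0.0062) without overlap. Its relative Slc39a6 rose by 0.66 ± 0.14. Slc39a11 fell by 0.39 ± 0.15 (adjusted p = 0.044), a call lost without any 1 of the 6 arrays. The zinc exporter of the plasma membrane, Slc30a1, differed by 0.56 ± 0.28 (adjusted p = 0.14), and passed with the culture term (0.03), although replicate 2 showed no rise (-0.05). The median change of the 16 zinc transporters was 0.30, against -0.08 for all genes.

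Among the 8 other metal transporters, 2 rose and 2 fell. Slc11a2, which carries ferrous iron into cells and out of endosomes, was at 7.61, 7.41 and 7.56 in controls and 8.85, 8.57 and 8.80 with mOSM, a rise of 1.22 ± 0.18 (adjusted p = 2.6e-06). Every mOSM array lay above every control. The other detected probes of Slc11a2 differed by 0.66 (detected on 48 arrays) and 1.32 (on 10). The iron exporter Slc40a1 differed by -1.58 ± 0.99 (adjusted p = 0.26), with overlap between the groups and matched differences of -0.56, -1.22 and -2.97, and it passed with the culture term (adjusted p = 1.6e-06). Slc31a2, a copper transporter, fell by 0.99 ± 0.28 (adjusted p = 0.0061), which did not pass without mOSM replicate 3 (0.072). The magnesium transporters went opposite ways. Slc41a1 was 0.88 ± 0.31 higher and at least 1.50-fold above a control group with no array above background, while Slc41a3 fell by 0.88 ± 0.30 (adjusted p = 0.025). Both calls were lost without some single arrays in the fit of group means. For Slc41a1 these were mOSM replicate 1 or 2 or control replicate 2 or 3. For Slc41a3 they were control replicate 1 or 3 or mOSM replicate 2 (0.14).

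Amino acid transporters moved in both directions, with 3 of 24 higher and 4 lower. The risers were Slc7a6, Slc1a4 and Slc3a2. Slc3a2 is the heavy chain that brings Slc7a6, an exchanger of cationic for neutral amino acids, to the plasma membrane, and Slc1a4 exchanges small neutral amino acids. Slc7a6 was at 6.39, 6.96 and 6.54 in controls and at 7.73, 8.29 and 7.96 with mOSM, a rise of 1.37 ± 0.24 (adjusted p = 4.2e-05) that was 1.34, 1.34 and 1.42 in the 3 cultures. Slc1a4 was at 8.12, 8.77 and 8.72 and at 9.55, 10.18 and 9.88, a rise of 1.33 ± 0.41 (adjusted p = 0.014). Both pairs of groups were separate, although the call of Slc1a4 was lost without control replicate 1 (0.079) or mOSM replicate 2 (0.067). Slc3a2 rose by 1.05 ± 0.39 (adjusted p = 0.04), and no longer passed without control replicate 1 or 3 or without mOSM replicate 1 or 3 (0.14 at the highest). The glycine transporter Slc6a9, of the neurotransmitter transporter family, rose by 1.31 ± 0.39 (adjusted p = 0.01), a call lost without control replicate 2 (0.09) or mOSM replicate 3.

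The amino acid transporters that fell were Slc7a2, Slc38a2, Slc38a9 and Slc38a7. Slc7a2, an arginine and lysine importer, was at 8.55, 8.26 and 8.82 in controls and at 7.15, 6.59 and 7.19 with mOSM, a fall of 1.57 ± 0.46 (adjusted p = 0.009, or 0.052 without mOSM replicate 2). Slc38a2, a sodium-coupled importer of neutral amino acids that amino acid shortage induces, was at 11.69, 11.49 and 11.20 and at 10.11, 10.22 and 10.11, a fall of 1.31 ± 0.37 (adjusted p = 0.0072). All mOSM arrays of Slc38a2 lay under every control, and its other 2 detected probes differed by -0.50 and -0.68. Slc38a9, a lysosomal arginine sensor, fell by 0.88 ± 0.20 (adjusted p = 0.00083), and Slc38a7 fell by 0.68 ± 0.21 (adjusted p = 0.015), a call lost without control replicate 1 or 3. The cystine importer Slc7a11 was at 5.48, 5.72 and 5.60 in controls and at 5.63, 5.36 and 5.66 with mOSM, a difference of -0.05 ± 0.22. These levels lie near the lowest detected signal, and its other probe, detected on 4 of the 48 arrays, differed by 0.74. The glutamine transporter Slc1a5 differed by 0.34 ± 0.62. Slc7a5, the usual partner of Slc3a2, has no named probe on the array. Among 12 genes of the amino acid response, a list outside the members, 3 rose and 0 fell, among them Asns (1.26 ± 0.22) and Atf4 (0.97 ± 0.30), and Ddit3 (-0.68 ± 0.43) was lower with the culture term alone (adjusted p = 0.012).

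The largest fall was in Slc6a6, the sodium-coupled taurine transporter. It stood at 13.62, 13.30 and 13.93 in WT controls at 6 h and at 11.74, 10.82 and 11.54 with mOSM. Every mOSM array was below every control. The fall was 2.25 ± 0.27 (log2, adjusted p = 5.7e-08), or 1.88, 2.48 and 2.39 in the 3 cultures. Slc5a3, which carries myo-inositol and, like the taurine transporter, serves cell volume control, fell by 1.56 ± 0.54 (adjusted p = 0.026) to below background on all 3 mOSM arrays, at least 1.67-fold lower. That call did not hold without control replicate 2 or 3 or mOSM replicate 1 or 3 (0.093 at the highest).

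Of all genes, 11.9% rose and 15.6% fell in WT cells with mOSM at 6 h, with a median change of -0.08. No member of the sugar transporter families rose, and 5 of 12 fell, with a median change of -0.40. Besides Slc5a3 they were Slc2a4, the glucose transporter that insulin brings to the surface of fat and muscle cells, Slc2a8, an intracellular relative, Slc45a4, and Slc5a6, which belongs to the sodium-glucose family but carries biotin and pantothenate. Slc2a4 fell by 1.47 ± 0.47 (adjusted p = 0.017) from a group detected on 3 control arrays to 0 mOSM arrays, at least 1.54-fold lower, and did not pass without control replicate 2 (0.14). Slc5a6 was at 9.43, 9.96 and 9.23 in controls and at 8.24, 8.46 and 7.96 with mOSM, a fall of 1.32 ± 0.39 (adjusted p = 0.0097, or 0.061 without control replicate 2). Slc2a8 fell by 0.91 ± 0.20 (adjusted p = 5e-04). Slc45a4 fell by 0.55 ± 0.19 (adjusted p = 0.025), a call lost without control replicate 1 or mOSM replicate 1 or 2.

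Markers of fat cells moved with the same comparison. Of 5 adipocyte markers, 0 passed in the fit of group means and 4 were lower with the culture term, with a median change of -0.71. Their summed level ran from 13.94 to 14.86 (log2) in WT controls at 6 h and from 12.62 to 13.91 with mOSM, and in KO controls it ran from 9.72 to 14.17. Their part in the falls of Slc2a4, of the fatty acid transporter Slc27a1 (1.16 ± 0.28) and of the mitochondrial carriers below was not tested. Of 4 chondrocyte markers 1 fell (Sox9) and Col2a1 (-0.35) was lower with the culture term alone (0.033), of 2 tested endothelial markers 1 was lower with the culture term alone (Tek), and of 3 tested macrophage markers 0 passed in either fit, with Ptprc and Acp5 detected on 0 arrays, as were the endothelial Pecam1 and Cdh5. The tested macrophage and osteoclast markers were Ctsk, detected on 48 arrays, Csf1r, on up to 45, and Adgre1, on up to 28. Of the muscle markers, Myod1 and Actn2 were detected on 0 arrays, Myog on up to 2 and Des on up to 39. Of 6 tested osteoblast markers 1 fell, Sp7, and 4 were lower with the culture term, which added Alpl (-0.73, adjusted p = 0.00036), Col1a2 (-0.38, 0.017) and Bglap (-1.13, 0.019). Of 4 tested osteocyte markers 1 rose, Pdpn, and Phex (-0.61) was lower with the culture term alone (0.0058). In these arrays fewer cells of a type and less RNA per cell cannot be told apart.

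Of 33 mitochondrial carriers 2 rose and 5 fell, all of whose calls but those of Slc25a10 and Slc25a28 held without any single array. The fallers carry dicarboxylates (Slc25a10, 1.22 ± 0.41), oxoglutarate and malate (Slc25a11, 0.88 ± 0.18), acylcarnitines (Slc25a20, 0.58 ± 0.11) and coenzyme A (Slc25a42, 1.15 ± 0.26), and Slc25a35, whose substrate is less well known, fell by 1.20 ± 0.23. The value of Slc25a11 is that of its brightest probe, and its other detected probes differed by only -0.31 and -0.28. The risers were Slc25a32, a carrier of folate or flavin (0.94 ± 0.21, adjusted p = 0.00097), and Slc25a28, an iron carrier (0.48 ± 0.15, adjusted p = 0.017). The call of Slc25a10 was lost without control replicate 1 or 2 or mOSM replicate 2 or 3 (0.11 at the highest), and that of Slc25a28 without mOSM replicate 1 or control replicate 2. The fatty acid transporter Slc27a6 differed by 1.22 ± 0.54 (adjusted p = 0.094) and passed with the culture term (0.00015).

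Of 18 carriers of inorganic ions, 1 rose and 2 fell. Slc24a3, which exchanges sodium for calcium and potassium, was at 10.33, 10.66 and 10.62 in controls and at 9.12, 9.15 and 9.26 with mOSM. It fell by 1.36 ± 0.18 (adjusted p = 3.9e-07), and the groups do not overlap. Slc4a2, the chloride and bicarbonate exchanger, fell by 0.77 ± 0.13 (adjusted p = 3.4e-05), and Slc12a3, a sodium chloride cotransporter, rose by 0.80 ± 0.17 (adjusted p = 0.00045). Slc8a1, the sodium calcium exchanger, and Slc12a2, the sodium potassium chloride cotransporter, differed by -0.90 ± 0.35 (adjusted p = 0.054) and -0.78 ± 0.46 (0.22), and both passed with the culture term (3.4e-06 and 3.4e-05). Of the phosphate importers, Slc20a1 differed by 0.73 ± 0.40 (adjusted p = 0.19) and Slc20a2 was detected on 0 arrays. The sulfate transporter Slc13a4 fell by 1.29 ± 0.29 (adjusted p = 0.00085) to below background, at least 1.16-fold lower.

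Of the 5 monocarboxylate transporters 1 fell. Slc16a9 was at 8.56, 8.84 and 8.33 in controls and at 6.99, 7.22 and 7.30 with mOSM, a fall of 1.41 ± 0.20 (adjusted p = 1.4e-06) with no overlap between the groups. The lactate exporter Slc16a3 differed by 0.26 ± 0.26, and Slc16a1 was detected on 0 arrays. Among organic ion carriers, Slc22a23, whose substrate is not established, fell by 1.53 ± 0.31 (adjusted p = 0.00026) to below background on all mOSM arrays, at least 1.41-fold lower. Slc66a2, whose family was placed in no class, was at 10.37, 10.73 and 10.39 in controls and at 12.04, 11.80 and 12.01 with mOSM, a rise of 1.45 ± 0.38 (adjusted p = 0.0035). The choline transporter Slc44a1 rose by 0.93 ± 0.21 with its brightest probe. It was the only 1 of the 13 risers and fallers with several detected probes in which another probe had the opposite sign, and it did not pass as a mean of its probes. Of the other members that passed, Slc17a5, which exports sialic acid from lysosomes, fell by 0.77 ± 0.25, Slc22a17 by 0.74 ± 0.28 and the Golgi UDP-galactose carrier Slc35a2 by 0.31 ± 0.10. The folate carrier Slc19a1 rose by 0.35 ± 0.13, Slc10a3 by 0.38 ± 0.12 and Slc35a4 by 0.38 ± 0.13. Each of these 6 calls was lost without some single arrays: for Slc17a5 control replicate 1 or mOSM replicate 2 or 3, for Slc22a17 any but control replicate 3, for Slc35a2 control replicate 2 or 3 or mOSM replicate 2, for Slc19a1 any but mOSM replicate 2, for Slc10a3 mOSM replicate 1 or 3 or control replicate 2, and for Slc35a4 control replicate 1 or 3 or mOSM replicate 1 or 2. Slc15a3 (0.11 ± 0.54), Slc29a1 (-0.42 ± 0.27) and Slc6a8 (-0.35 ± 0.17), did not pass, although the last 2 did with the culture term (0.035 and 0.0047).

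**Figure D1:**
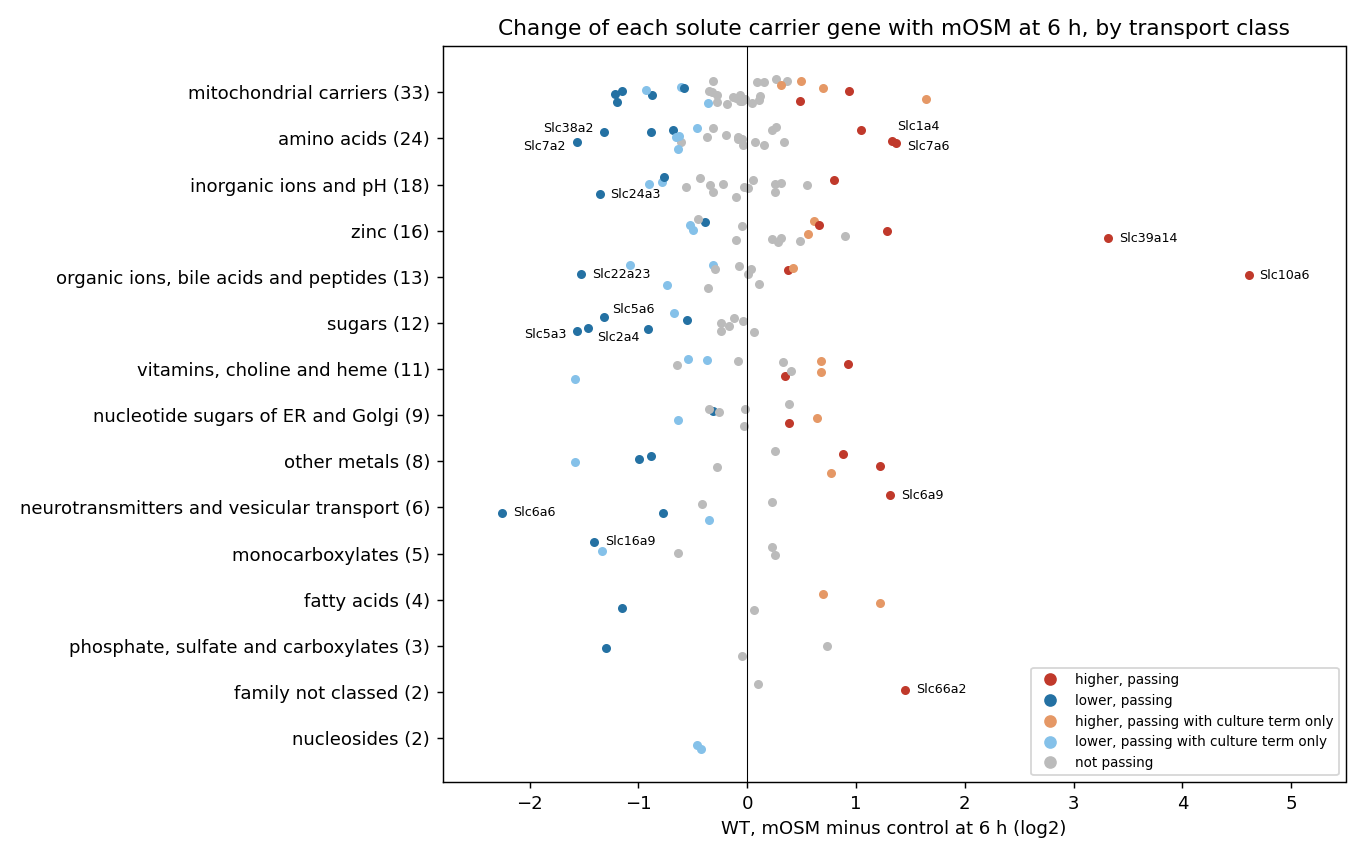
Change in WT cells given mOSM for 6 h against controls (x axis, log2) for each of the 166 solute carrier genes, 1 point per gene, in rows by transport class with the number of genes; vertical scatter within a row has no meaning. Slc10a6 at 4.61 and Slc39a14 at 3.32 lie apart from all other risers, and Slc6a6 at -2.25 is the lowest point. The sugar row, of only 12 genes, has no riser past the test, where 11.9% of all genes rose. No class was tested as a set.

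Outside the solute carriers, of 27 genes of the ABC family 3 rose and 8 fell, or 6 and 10 with the culture term. Of 16 genes of P-type ATPases 4 rose and 0 fell, and with the culture term 5 were higher and 3 lower (Atp1b1, Atp1b2 and Atp13a2). Of 23 genes whose symbols start with Kcn, most but not all of them genes of potassium channels, 3 rose and 1 fell. With the culture term 3 were higher and 6 lower, Kcna6 (-1.58) and Kcne4 (-1.27) among the latter. The risers Kcnj15, Kcnip3 and Kcnc1 were detected on up to 20, 17 and 4 arrays. Of 6 organic anion transporters of the Slco family 2 rose and 0 fell in both fits. The 3 ABC genes that rose in the fit of group means, Abce1, Abcf1 and Abcf2, encode proteins that act on ribosomes and carry nothing across membranes. The prostaglandin transporter Slco2a1 rose by 1.70 ± 0.26 (adjusted p = 3.8e-06).

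With hOSM or mLIF, the ligands of the LIF receptor, few members passed, and all of them were Slc39a14, Slc10a6 or Slc24a3. In WT cells at 6 h, 3 members passed with hOSM, of 0.661% of all genes, and 2 with mLIF, of 0.494%. In KO cells 2 passed with hOSM (0.829% of all genes) and 2 with mLIF (0.931%). With the culture term these counts were 15, 13, 21 and 19 members, and 5.63%, 5.45%, 6.99% and 7.89% of all genes. The comparisons within a genotype share their controls.

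Slc39a14 passed in all 4. Its levels at 6 h were 6.16, 6.58 and 6.92 with hOSM and 6.69, 6.47 and 6.48 with mLIF in WT cells, and 6.22, 7.07 and 6.85 with hOSM and 7.03, 6.37 and 6.19 with mLIF in KO cells. All 12 lay above the KO controls at 5.40, 5.15 and 5.35 and the WT controls given above, and below the 3 WT mOSM arrays. The rises were 1.37, 1.37, 1.41 and 1.23 (SE 0.27 each, adjusted p = 0.0057, 0.006, 0.0029 and 0.012 by limma), at least 1.89-, 1.88-, 2.05- and 1.81-fold above control arrays at background. The call with hOSM in WT cells was lost without hOSM replicate 3 (0.076), and that with mLIF in KO cells without mLIF replicate 1 (0.11) or control replicate 2. That with mLIF in WT cells did not pass with median scaling (0.062), and that with hOSM in KO cells did not pass with only the compared groups fitted (0.31).

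Slc10a6 rose in WT cells by 3.51 ± 0.72 with hOSM (adjusted p = 0.011) and by 3.45 ± 0.72 with mLIF (0.012), to 9.09, 9.11 and 8.43 and to 9.13, 8.80 and 8.53. Without WT control replicate 2 neither passed (0.087 and 0.11), and the same held without hOSM or mLIF replicate 1 or 2, or without control replicate 3. In KO cells it was at 6.55, 7.26 and 4.68 in controls, at 9.13, 9.58 and 7.64 with hOSM and at 9.14, 9.43 and 7.49 with mLIF. The groups are separate but the third culture lies below the other 2 in each. The differences of 2.62 and 2.52 had adjusted p-values of 0.077 and 0.092, and 1.7e-07 and 2.7e-07 with the culture term.

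Slc24a3 fell with hOSM in WT cells (0.82 ± 0.18, adjusted p = 0.018) and with hOSM and mLIF in KO cells (0.74 and 0.73, SE 0.18, adjusted p = 0.033 and 0.036). With mLIF in WT cells it differed by -0.62 (adjusted p = 0.13) and passed with the culture term. The call in WT cells was lost without any 1 array but control replicate 1 (0.12 at the highest), and those in KO cells without control replicate 1 or 2 or ligand replicate 2 or 3 (0.26 and 0.28 at the highest). Slc6a6 was lower by 0.80 and 0.76 in WT and by 0.74 and 0.75 in KO cells, with adjusted p-values of 0.26 to 0.33, and passed in all 4 with the culture term. So did Slc1a4, higher by 0.98, 1.01, 1.23 and 1.20, Slc6a9, by 0.79, 0.96, 0.69 and 0.74, and Slc27a6, by 1.31, 1.04, 0.90 and 0.79. No member differed between hOSM and mLIF in either genotype in either fit by limma, and 0% of all genes did. At an unadjusted p under 0.05 it was 2 members in WT and 0 in KO cells, against 114 and 110 genes. For Slc39a14 that difference was 0.01 (95% interval -0.54 to 0.55) in WT and 0.18 (-0.36 to 0.72) in KO cells, and for Slc10a6 0.06 (-1.41 to 1.52) and 0.10 (-1.37 to 1.57).

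**Figure D2:**
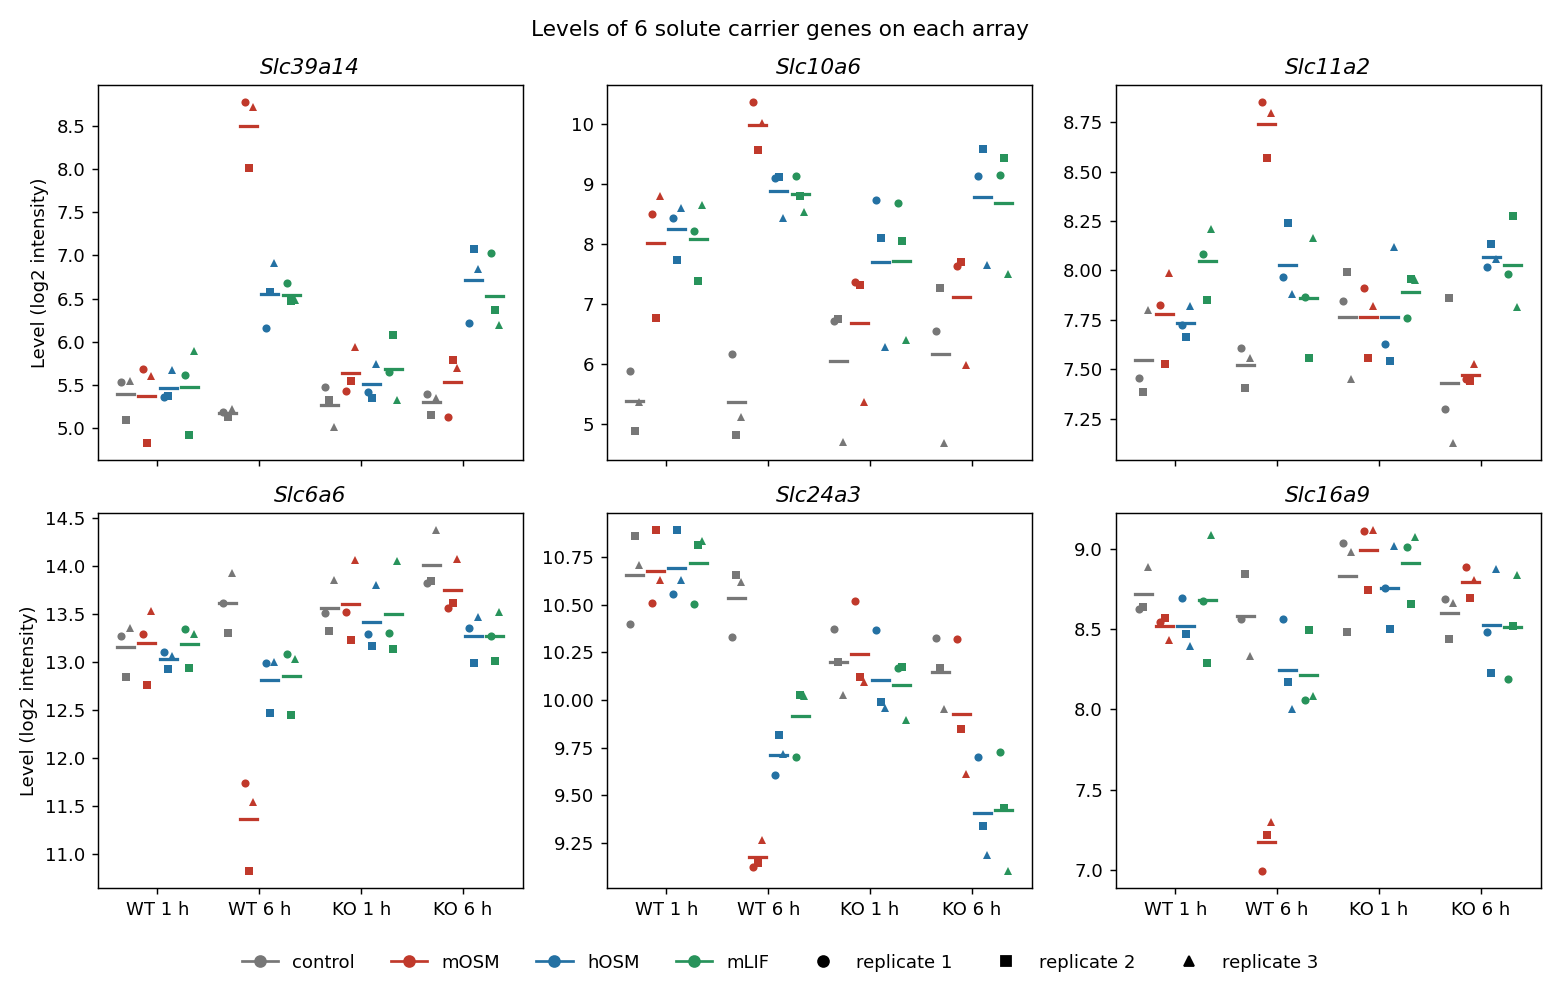
Level on each array (y axis, log2 intensity) of 6 solute carrier genes by genotype and time, with 1 point per array, its shape giving the replicate, its colour the treatment and a bar for the mean of 3. In WT cells at 6 h the mOSM arrays stand apart from the controls in all 6, and the hOSM and mLIF arrays lie between them for Slc39a14, Slc10a6, Slc6a6 and Slc24a3, while in KO cells the mOSM change at 6 h is 0.94 for Slc10a6 and between -0.26 and 0.24 for the other 5.

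At 1 h a single member passed in any group. Slc38a2 was at 11.84, 12.04 and 11.40 in WT controls and at 10.18, 10.43 and 10.16 with mOSM, a fall of 1.51 ± 0.37 (adjusted p = 0.039, where 0.745% of all genes passed), with no overlap. The call was lost without any 1 of the 6 arrays (0.31 at the highest). With hOSM and mLIF in WT cells it was at 10.46, 10.45 and 10.44 and at 10.27, 10.51 and 10.31, differences of -1.31 and -1.40 (adjusted p = 0.16 and 0.083). In KO cells it was at 12.33, 12.19 and 11.49 in controls, at 10.90, 10.22 and 10.84 with hOSM and at 10.79, 10.26 and 10.88 with mLIF (differences of -1.35 and -1.36), but at 12.51, 12.06 and 11.69 with mOSM, among the controls. All of these but the last passed with the culture term (adjusted p = 0.0017, 0.00075, 0.0014 and 0.0013). With that term 1.64%, 1.45% and 1.69% of all genes passed in WT cells at 1 h with mOSM, hOSM and mLIF, and 1.14% and 1.15% in KO cells with hOSM and mLIF. By 6 h the WT hOSM and mLIF arrays, at 10.85 to 11.65, overlapped the controls, with differences of -0.04 and -0.25 that passed in neither fit.

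Slc10a6 was also higher at 1 h, by 2.64, 2.88 and 2.71 in WT cells with mOSM, hOSM and mLIF and by 1.65 and 1.66 in KO cells with hOSM and mLIF, and these passed only with the culture term (adjusted p = 1.4e-07, 5.1e-08, 1.2e-07, 0.00063 and 0.00065). The shares of all genes passing in the fit of group means were 0.466% and 0.624% in WT cells with hOSM and mLIF and 0.4% and 0.428% in KO cells, with 0 members by limma in each, and 3, 5, 2 and 2 members at an unadjusted p under 0.05. Slc66a2 was higher with hOSM (0.99) and mLIF (0.93) in WT cells at 1 h with the culture term alone (0.021 and 0.036). Slc39a14 showed no such early difference: its WT arrays at 1 h ran from 4.83 to 5.90 over all 4 treatments.

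In KO cells given mOSM no member passed limma's test at 1 h or 6 h in either fit, with 0.00931% and 0% of all genes passing in the fit of group means and 0.00931% and 0.0466% with the culture term. At an unadjusted p under 0.05 it was 0 members at 1 h and 1 at 6 h, against 103 and 200 genes. At 6 h Slc10a6 was at 7.63, 7.70 and 5.99, a difference of 0.94 ± 0.72 that was positive in each of the 3 cultures, and Slc39a14 at 5.13, 5.79 and 5.70, a difference of 0.24 ± 0.27. Slc6a6 stood at 13.56, 13.61 and 14.07 against 13.82, 13.84 and 14.38 in controls, a difference of -0.26 ± 0.27.

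The difference of the mOSM effect between genotypes at 6 h passed for 13 members, where 9.71% of all genes passed. For the fallers in WT cells it was positive and for the risers negative, that is, the effect was smaller in KO cells for all 13. For Slc39a14 it was -3.08 ± 0.38 (95% interval -3.85 to -2.31, adjusted p = 1.2e-06, and -2.79 with arrays below background raised to the floor), for Slc6a6 1.99 ± 0.38 (1.23 to 2.75, 0.00047), for Slc16a9 1.60 ± 0.28 (1.03 to 2.17, 0.00021), for Slc11a2 -1.17 ± 0.25 (-1.69 to -0.66, 0.002) and for Slc24a3 1.14 ± 0.25 (0.62 to 1.65, 0.0028). These 5 passed without any single array and under each of the alternatives tried. The other 8, Slc10a6, Slc7a6, Slc25a32, Slc22a23, Slc31a2, Slc13a4, Slc2a8 and Slc4a2, did not, and for Slc10a6 (-3.67 ± 1.02, adjusted p = 0.017) the call was lost without KO control replicate 2 (0.064) or KO mOSM replicate 3. For Slc22a23 and Slc13a4 the difference shrank from 1.40 and 1.25 to 0.45 and 0.21 once arrays below background were raised to the floor. Over all 13, 7 passed without WT mOSM replicate 3 and 8 without KO mOSM replicate 2. With the culture term 46 members passed, with 26.3% of all genes. At 1 h 0 members passed by limma (0.0745% of all genes; 2 members at an unadjusted p under 0.05), and with the culture term Slc38a2 (1.59) and Slc10a6 (-2.02) did (0.372% of all genes).

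**Figure D3:**
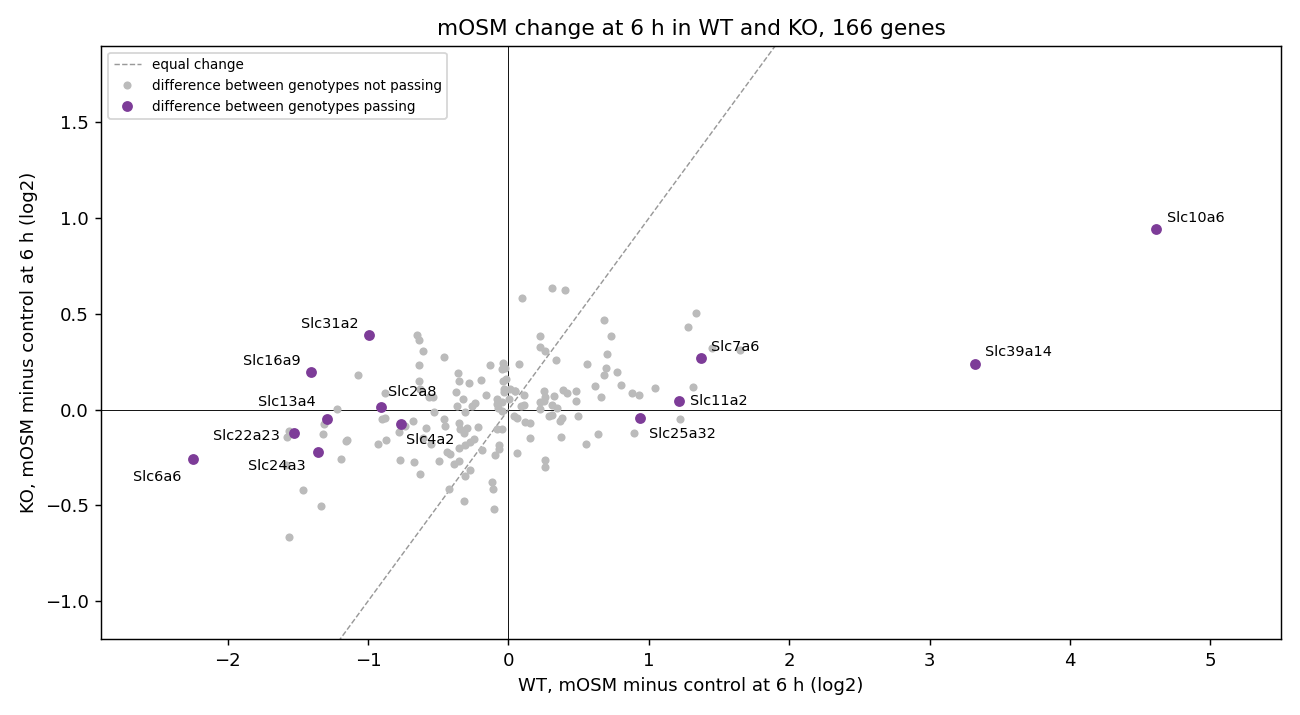
Change with mOSM at 6 h in KO cells (y axis, log2) against that in WT cells (x axis, log2), 1 point per solute carrier gene. The axes have different scales and the dashed line marks equal change; the 13 genes whose difference between genotypes passed are named, and their KO changes run from -0.26 to 0.94 while their WT changes run from -2.25 to 4.61.

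For hOSM and mLIF the difference between genotypes passed for 0 members at 1 h and 6 h in either fit by limma, and for 0% of all genes. At an unadjusted p under 0.05 it was 1 member with each ligand at 1 h and 0 at 6 h. That does not show equal effects. For Slc10a6 at 6 h it was -0.89 (95% interval -2.96 to 1.19) with hOSM and -0.93 (-3.00 to 1.14) with mLIF, and for Slc39a14 0.04 (-0.73 to 0.81) and -0.14 (-0.91 to 0.63). For Slc24a3 it was 0.08 (-0.43 to 0.60) and -0.11 (-0.62 to 0.41).

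Set against the LIF receptor ligands in WT cells at 6 h, mOSM gave 24 members that differed from hOSM, 10 higher and 14 lower (15.9% of all genes, 6.71% higher and 9.23% lower), and 26 that differed from mLIF, 10 higher and 16 lower (15.5%, with 6.46% higher and 9% lower). The leading ones were shared by both comparisons, which use the same mOSM arrays. Slc39a14 was higher by 1.95 ± 0.27 than with either (adjusted p = 2.6e-06 and 2.2e-06), Slc11a2 by 0.71 and 0.88 ± 0.18, Slc39a6 by 0.63 and 0.56 ± 0.14, and Slc6a6 was lower by 1.45 and 1.49 ± 0.27, Slc16a9 by 1.07 and 1.04 ± 0.20 and Slc38a2 by 1.27 and 1.07 ± 0.37. Of these, Slc39a14, Slc39a6, Slc6a6 and Slc16a9 passed against both ligands under every alternative tried, while Slc11a2 did not pass against hOSM with median scaling and Slc38a2 lost both calls without single arrays, hOSM replicate 1 (0.073) and mLIF replicate 1 (0.19) among them. Slc10a6 did not pass against either ligand in the fit of group means, which does not show equal effects. Its rises over controls were 4.61 with mOSM, 3.51 with hOSM and 3.45 with mLIF. Its other detected probe rose by 3.52, 2.16 and 2.14. With median scaling, which moved the median of all genes against hOSM from -0.08 to -0.20, the splits were 3 higher and 23 lower against hOSM and 7 and 7 against mLIF. The counts were also lower without some single arrays. Against hOSM 14 passed without hOSM replicate 1, 11 without hOSM replicate 2 and 12 without mOSM replicate 3. Against mLIF 15 passed without mLIF replicate 1, 16 without mLIF replicate 2, 13 without mOSM replicate 2 and 15 without mOSM replicate 3. With the culture term 63 and 59 members passed (33.1% and 31.5% of all genes).

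In KO cells mOSM differed from hOSM or mLIF in 0 members by limma (0.186% of all genes in each), in 9 and 5 at an unadjusted p under 0.05, and with the culture term in 6 and 7 (1.67% and 2.33%). For Slc39a14 the difference from hOSM was -1.17 ± 0.27 (adjusted p = 0.052, and 0.0043 with the culture term), and for Slc10a6 -1.68 ± 0.72 (1, and 0.00084).

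Between 1 h and 6 h the WT effect of mOSM changed for 21 members, 8 upward and 13 downward, where 13% of all genes did (5.56% upward and 7.43% downward). Slc39a14 gained 3.34 ± 0.38 (adjusted p = 2e-07), or 2.91 with arrays below background raised to the floor, Slc7a6 1.82 ± 0.34 (0.00035) and Slc11a2 0.98 ± 0.25 (0.0072), and the effect on Slc6a6 moved by -2.29 ± 0.38 (7.1e-05) and on Slc24a3 by -1.38 ± 0.25 (0.00028). All 5 held under every alternative tried. Without WT mOSM 1 h replicate 1 or WT control 6 h replicate 1 the count was 13 in each case. With median scaling 3 went upward and 14 downward. With the culture term 57 members passed (30.4% of all genes).

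**Figure D4:**
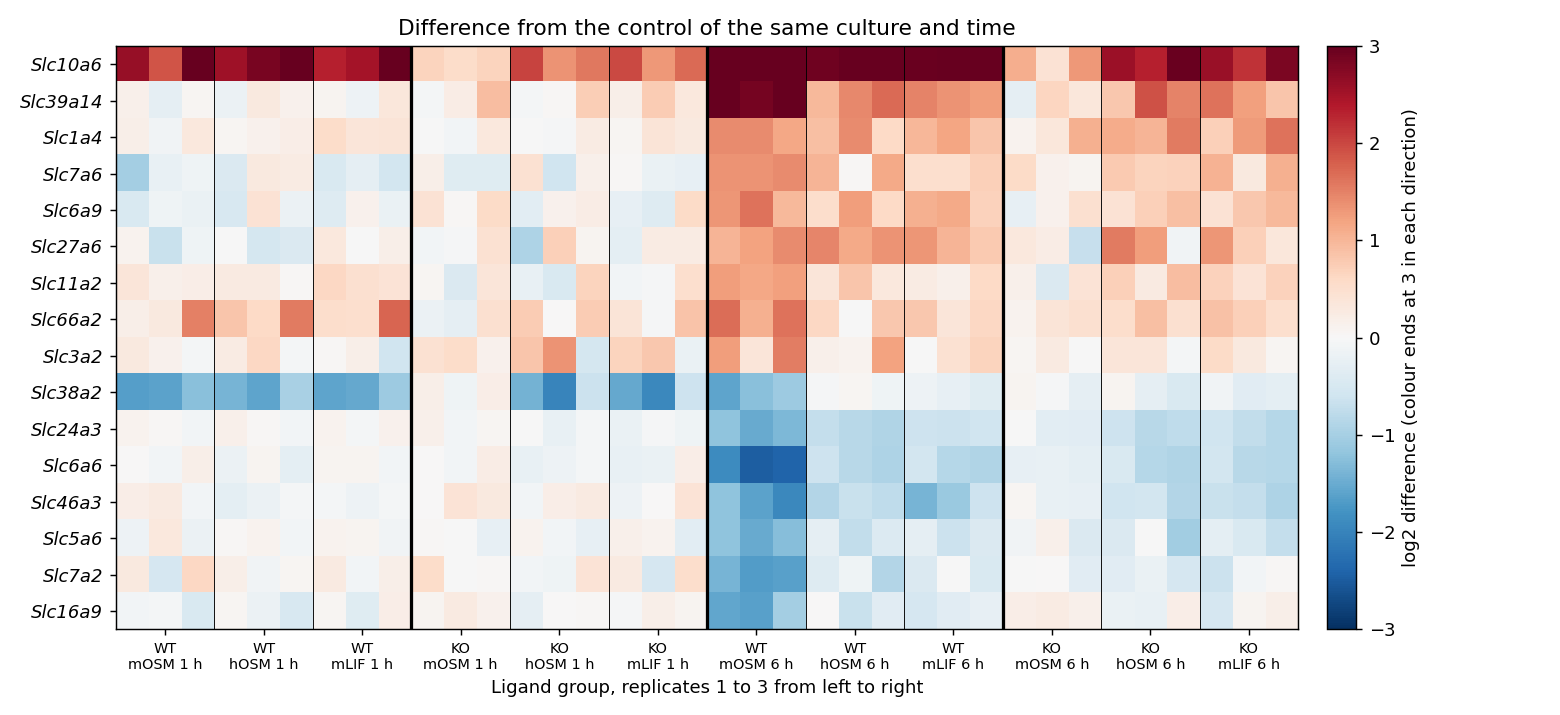
Difference of each treated array from the control array of the same culture and time (colour, log2, red higher and blue lower) for 16 solute carrier genes. The genes were chosen after their values were seen, and all but Slc46a3 are named in the text. Columns are the replicates 1 to 3 of each ligand group, 1 h on the left and 6 h on the right. Slc38a2 is lower at 1 h in all groups but KO with mOSM, and at 6 h its mean change is -1.31 in WT with mOSM and between -0.25 and -0.04 in the other 5 groups, and Slc10a6 is red in nearly every column.

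Without ligand, no member differed between KO and WT controls at 1 h or 6 h in either fit by limma (0.0186% and 0.0279% of all genes), and 8 and 4 did at an unadjusted p under 0.05. Each culture is of a single genotype, so here the second fit had no separate culture terms. It used a correlation between arrays of the same culture instead (limma's duplicateCorrelation), and 0.0838% and 0.0372% of all genes passed. Slc6a6 was 0.39 ± 0.27 and Slc24a3 -0.39 ± 0.18 from WT at 6 h. From 1 h to 6 h the mitochondrial ATP-Mg and phosphate carrier Slc25a25 fell in the controls of both genotypes, by 1.25 ± 0.26 in WT (adjusted p = 0.014, with 0.428% of all genes passing) and by 1.46 ± 0.26 in KO cells (0.002, 0.279%). It was the only member to pass in the fit of group means, while 4 WT and 3 KO members passed with the culture term (1.56% and 1.39% of all genes). The WT call was lost without control 6 h replicate 2 (0.11), control 6 h replicate 3, or control 1 h replicate 1 or 3, and the KO call without control 1 h replicate 1 or 2 (0.054). In WT cells at 6 h it was 0.90 ± 0.26 higher with mOSM than with hOSM and 0.91 ± 0.26 higher than with mLIF (adjusted p = 0.017 and 0.015). The former was lost without hOSM replicate 2 (0.096) or mOSM replicate 3, and the latter without mLIF replicate 1 (0.074) or mOSM replicate 3.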

How the data were processed

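RNA of 48 samples, from 3 cultures of each genotype, was measured on Illumina mouse bead arrays. The deposited signal file holds linear probe intensities with a detection p-value per probe and array, as exported by the authors from BeadStudio, per the submitters' processing notes. The deposited normalized table holds log2 values. Background correction and quantile normalization by limma's neqc, run on the deposited intensities, gave the same log2 values within 0.03376. The versions the authors used are not given in the sources used here.

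Of 46237 probes, 45281 are in the normalized table. The platform annotation names 1 gene for 34885 probes and several for 18, which were left out. Genes with a probe at a detection p-value under 0.01 on at least 3 arrays were tested, 10739 in all. 1 solute carrier gene is not reported here. All 16 group means were fitted to the deposited log2 values with limma 3.58.1 in R 4.3.3 (lmFit and eBayes, 32 residual degrees of freedom). P-values were adjusted by the Benjamini-Hochberg method over all genes in each comparison. The fit of group means was also run on simulated arrays without shared cultures, which cannot show how it behaves on arrays that share them. Precision is limited by having 3 arrays in a group. Where a group had no array above background, a fold is given as at least the mean against, per array, the higher of its lowest detected signal and the probe's own.

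Replicate numbers mark a shared culture within a genotype. Deviations from the group means correlated at 0.659 on average between arrays of the same culture (0.302 at the lowest), at -0.324 between other numbers of the same genotype and at -0.001 between the same number in different genotypes. Deviations cancel within each group, so the negative value follows from the positive average within cultures. By the same deviations, and leaving out arrays of the same group, all 48 arrays were closest to an array of their own culture. By the labels, cells of replicates 1 and 2 were thawed on a single day and those of replicate 3 on another, 2 days in all, whereas the design text speaks of 3 occasions.

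The members, gene lists and transport classes were chosen with earlier results of these data known. Named genes are up to 10 of the largest rises and falls that passed in each ligand comparison, up to 6 in the others, up to 3 per class in WT cells with mOSM at 6 h, and a fixed list of 19 genes. Other genes were named after their values were seen. Alternatives were other background corrections, scalings, probe rules, filters and blocks, and leaving out each array. Arrays were left out in the fit of group means, without the culture term, which leaves the cultures unbalanced between the compared groups.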

Additional observations from a re-analysis of the deposited data

Results flagged for a closer look

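The effect of mOSM at 6 h differed between genotypes, by the test of the difference itself in limma, for these solute carriers among the named genes. As KO minus WT effect (log2), it was 1.99 ± 0.38 for Slc6a6 (adjusted p = 0.00047), 1.60 ± 0.28 for Slc16a9 (0.00021), 1.40 ± 0.44 for Slc22a23 (0.035), 1.38 ± 0.39 for Slc31a2 (0.019), 1.25 ± 0.41 for Slc13a4 (0.049) and 1.14 ± 0.25 for Slc24a3 (0.0028). It was -3.67 ± 1.02 for Slc10a6 (0.017), -3.08 ± 0.38 for Slc39a14 (1.2e-06), -1.17 ± 0.25 for Slc11a2 (0.002), -1.10 ± 0.34 for Slc7a6 (0.034) and -0.99 ± 0.30 for Slc25a32 (0.032). With arrays below background raised to the lowest detected signal of the array, the differences were 0.45 for Slc22a23, 0.21 for Slc13a4, -2.79 for Slc39a14 and -3.52 for Slc10a6, so the first 2 rest mostly on signals below background.

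The WT effect of mOSM differed between the 2 times by the same kind of test. As the effect at 6 h minus that at 1 h (log2), it was 3.34 ± 0.38 for Slc39a14 (adjusted p = 2e-07), 1.82 ± 0.34 for Slc7a6 (0.00035), 1.57 ± 0.50 for Slc39a10 (0.033), 0.98 ± 0.25 for Slc11a2 (0.0072), 0.93 ± 0.30 for Slc25a32 (0.036) and 0.81 ± 0.24 for Slc12a3 (0.021). It was -2.40 ± 0.76 for Slc5a3 (0.031), -2.29 ± 0.38 for Slc6a6 (7.1e-05), -1.76 ± 0.44 for Slc22a23 (0.0058), -1.57 ± 0.41 for Slc13a4 (0.0086), -1.41 ± 0.33 for Slc25a35 (0.003) and -1.38 ± 0.25 for Slc24a3 (0.00028). With the same floor they were 2.91 for Slc39a14, -1.34 for Slc5a3, -0.69 for Slc22a23, -0.21 for Slc13a4 and -1.23 for Slc25a35, so the unfloored sizes for Slc5a3, Slc22a23 and Slc13a4 take in differences below background.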

How the results depend on the processing

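No named result that passed in the main fit or under an alternative had the opposite sign in the other. Signs of differences that passed in neither were not compared. Of the values of named genes under the alternatives, 4478 kept their side of the threshold, 302 no longer passed and 69 came to pass. Counts of solute carriers that passed moved by more than 1.5 times as follows, and the cause was not tested. With the replicate block, that is the culture term, WT counts at 1 h were 2 with mOSM, 3 with hOSM and 3 with mLIF, and KO counts 2 with hOSM and 2 with mLIF. At 6 h they were 81, 15 and 13 in WT cells, and 21 and 19 in KO cells with hOSM and mLIF. The genotype difference of the mOSM effect gave 2 at 1 h and 46 at 6 h. In WT cells mOSM differed from hOSM in 63 and from mLIF in 59, and in KO cells in 6 and 7. The change from 1 h to 6 h gave 57 for the WT mOSM effect, 4 for WT controls and 3 for KO controls. The culture term changed no other count by that much.

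With median scaling the counts were 0 for WT mOSM at 1 h, 1 for WT mLIF, KO hOSM and KO mLIF at 6 h, 14 for mOSM against mLIF in WT cells and 0 for WT controls over time. That scaling moved the median of all genes by over 0.1 in several comparisons, to 0.242 from 0.005 at the most, for the genotype difference of the mLIF effect at 6 h. With no detection filter WT mOSM at 1 h gave 0. With the beadchip as a block the counts were 0 for WT mOSM at 1 h, 1 for WT mLIF and KO hOSM and 0 for KO mLIF at 6 h, 1 for KO mOSM against hOSM, 11 for the WT mOSM effect over time and 0 for WT controls over time. With only the compared groups fitted they were 1 for WT hOSM at 1 h, and 0 for KO hOSM and KO mLIF at 6 h and for KO controls over time. The mean of the detected probes gave 1 for WT mLIF at 1 h and 1 each for KO mOSM against hOSM and mLIF, no background correction gave 1 each for WT and KO mLIF at 6 h, and detection on all arrays of a compared group gave 1 for KO mOSM against hOSM. Without the KO replicate 3 culture the counts were 1 each for KO hOSM and KO mLIF at 1 h, and 1 at 1 h and 20 at 6 h for the genotype difference of the mOSM effect.

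Some settings were chosen after seeing the data. With the thaw day as a block the counts were 2 for each of WT mOSM, hOSM and mLIF at 1 h, 1 each for KO hOSM and mLIF at 1 h, 6 and 4 for KO hOSM and mLIF at 6 h, 24 for the genotype difference at 6 h and 1 for KO mOSM against hOSM. Without replicate 3, the second thaw day, they were 2 for each WT ligand and for KO hOSM at 1 h, 1 for KO mLIF at 1 h, 1 for WT hOSM at 6 h and 0 for WT controls over time.

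Without any 1 array the WT counts ran from 0 to 1 with mOSM at 1 h, and at 6 h from 34 to 40 with mOSM, from 1 to 3 with hOSM and from 1 to 2 with mLIF. The KO counts at 6 h ran from 1 to 3 with hOSM and from 1 to 2 with mLIF, and the other ligand counts were 0. The genotype difference at 6 h ran from 7 to 15, mOSM against hOSM from 11 to 23 and against mLIF from 13 to 19 in WT cells, KO mOSM against hOSM from 0 to 1, the WT mOSM effect over time from 13 to 22 and the controls over time from 0 to 1. Signals near background limit the falls of Slc13a4, Slc22a23, Slc2a4 and Slc5a3, whose sizes there are bounds.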
